A study of Mus musculus with 6 samples.

Results

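Primordial germ cells are the embryonic founders of eggs and sperm. Their fate is set by the transcriptional regulators PRDM1 (also called BLIMP1), PRDM14 and TFAP2C. Their survival and migration depend on the receptor tyrosine kinase KIT with its ligand KITL, and on the chemokine receptor CXCR4. DPPA3 (Stella) and the RNA-binding protein NANOS3 mark and protect the specified cells, and tissue-nonspecific alkaline phosphatase, the product of Alpl, is the classical histochemical stain for them. The transcripts of these 9 genes were read in RNA recovered with GFP-tagged DAZL, an RNA-binding protein of germ cells, and in 2 reference samples. The genes were chosen by name, and every non-control array probe carrying one of the names was used: 8 of the 9 genes had a probe, with 10 of the array's 41174 probes in all. Prdm14 is not analysed here because no probe carried its name. Tfap2c and Alpl stand in the array design under the older names Tcfap2c and Akp2.

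The cells were germ cells derived in culture from mouse embryonic stem (ES) cells of the V6.5 line, of a mixed C57BL/6 129SV background, carrying Dazl-GFP-V5. They were depleted of feeder cells and differentiated for 12 days, and all 6 arrays share this construct and treatment. RNA was crosslinked to protein by ultraviolet light. It was recovered with an antibody to GFP (GFP IP, aimed at DAZL-bound RNA) or to PABP1, a poly(A)-binding protein (PABP1 IP). For the input, total RNA was taken with no antibody. Each group had 2 arrays. The promoter of the construct, a sorting step and whether the replicates were separate cultures are not given in the sources used here, so the p-values reflect array-to-array spread, which may be technical. A pull-down without antibody or with an unrelated antibody was not analysed here, so binding by DAZL itself was not tested.

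Values below are the background-subtracted processed signal of a probe divided by the 75th percentile of its array, called the scaled signal. A difference is in log2 units with the standard error (SE) from limma, an adjusted p under 0.05 passed the test, and a probe was tested if both arrays of 1 or more groups flagged it as well above background. This kept 21051 probes, among them 8 probes of 7 of the genes. Between 41.5% and 52.6% of spots on an array were well above background, and the 75th percentile ran from 63.5 to 163. Both inputs, PABP1 IP replicate 1 and GFP IP replicate 2 were on slide 1, and the other 2 arrays on slide 2. The labelled germ cell type was set against 11 germ cell markers with a probe, some of them genes analysed below. Of these, 10 or 11 were well above background on each array, although Ddx4, a marker of later germ cells, was not in either input. Their summed scaled signal was 155 to 161 in the inputs, 332 to 356 in the PABP1 IPs and 166 to 178 in the GFP IPs. In the inputs and PABP1 IPs, most of it was Pou5f1, Ifitm3 and Alpl. Pou5f1 read 61.9 and 69.7 in the inputs and 173 and 199 in the PABP1 IPs. Ifitm3 read 36.1 and 31.2, then 112 and 110. No other of these markers read above 11.2 in an input, and Dazl read 0.852 and 0.778 there. In the GFP IP against input, 5 of the 10 tested were higher, 3 lower and 2 did not pass, beside 18.2% and 36.9% of all genes. All 6 markers of undifferentiated ES cells were well above background on every array, with a summed scaled signal of 3910 to 4110 in the inputs, 1810 to 3750 in the PABP1 IPs and 1650 to 1920 in the GFP IPs. Most of that sum was Dppa5a, the 1 ES cell marker that was lower in the GFP IP against input, while 3 were higher (Nanog by 1.41, Zfp42 by 1.16 and Tdgf1 by 0.58) and 2 did not pass. Cardiac muscle markers summed to 35 to 37.7 in the inputs, 80.6 to 86.8 in the PABP1 IPs and 13.1 to 14.5 in the GFP IPs, most of it Myl7. In the PABP1 IP against input Myl7 was higher by 1.54, while Tnni3 was lower by -1.46. All 4 tested cardiac markers and 4 of the 5 tested fibroblast markers were lower in the GFP IP than in input. The fibroblast markers summed to 89.3 to 120 in the inputs, 98.2 to 117 in the PABP1 IPs and 30.1 to 53.1 in the GFP IPs. Of 6 visceral endoderm markers, Afp, Ttr, Apoa1 and Apoa4 were below background on all arrays, Rbp4 was well above it on all arrays (0.8 and 0.833 in the inputs, 2.48 and 2.4 in the PABP1 IPs, 0.854 and 0.761 in the GFP IPs), and Foxa2 only in the IPs. Blood and endothelial markers summed to 1.99 to 2.33 in the inputs, 1.5 to 1.51 in the PABP1 IPs and 7.71 to 8.42 in the GFP IPs. Most of the GFP IP sum was Pecam1, at 7.38 and 8.06, higher than in input by 2.28. The other tested markers of this set, Cd34 (-0.66) and Gata1 (-0.49), did not pass. Of the neural markers, Tubb3 in the GFP IP was above input by 1.77 and Nes differed by -2.22. The part of other cell types in the results below was not tested. In such bulk RNA, the number of cells of a type, the RNA per cell and the share of it that an antibody recovered cannot be told apart.

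The first question was which of these transcripts were enriched in the GFP IP relative to total RNA. Relative to input, the GFP IP held more Kit, Prdm1, Tfap2c, Dppa3 and Cxcr4 RNA and less Nanos3 and Alpl in the main setting. Cxcr4 turned the other way under 1 background correction. Of 17 alternative settings, the call was lost in 6 for Nanos3, 3 for Tfap2c and 2 for Alpl. Under scaling to spike-in controls, Nanos3 and Alpl each differed by only -0.23 and did not pass. Of the 8 tested probes, 6 were higher and 2 lower, whereas 53.2% of all tested probes passed in either direction, 20.7% higher and 32.5% lower. Both Cxcr4 probes entered the test only through the GFP IP arrays, so these 2 calls could hardly have gone another way. The other 6 probes passed the background flag on every array, 4 of them higher and 2 lower, with a median difference of 1.27 beside -0.38 for all probes. Over the 15578 probes with that flag on every array, tested alone, the median was -0.45, with 3398 higher and 6620 lower. With PABP1 in place of DAZL, 2 probes were higher (Dppa3, Nanos3), 2 lower (Prdm1, Alpl) and 4 did not pass, beside 54.7% of all probes called, 30.7% higher and 24% lower. Between the antibodies, 5 probes were higher with GFP, 2 lower and 1 did not pass, beside 62.8% of all probes called, 24.4% higher and 38.4% lower. The 3 comparisons share arrays and are not independent of each other.

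**Figure D1:**
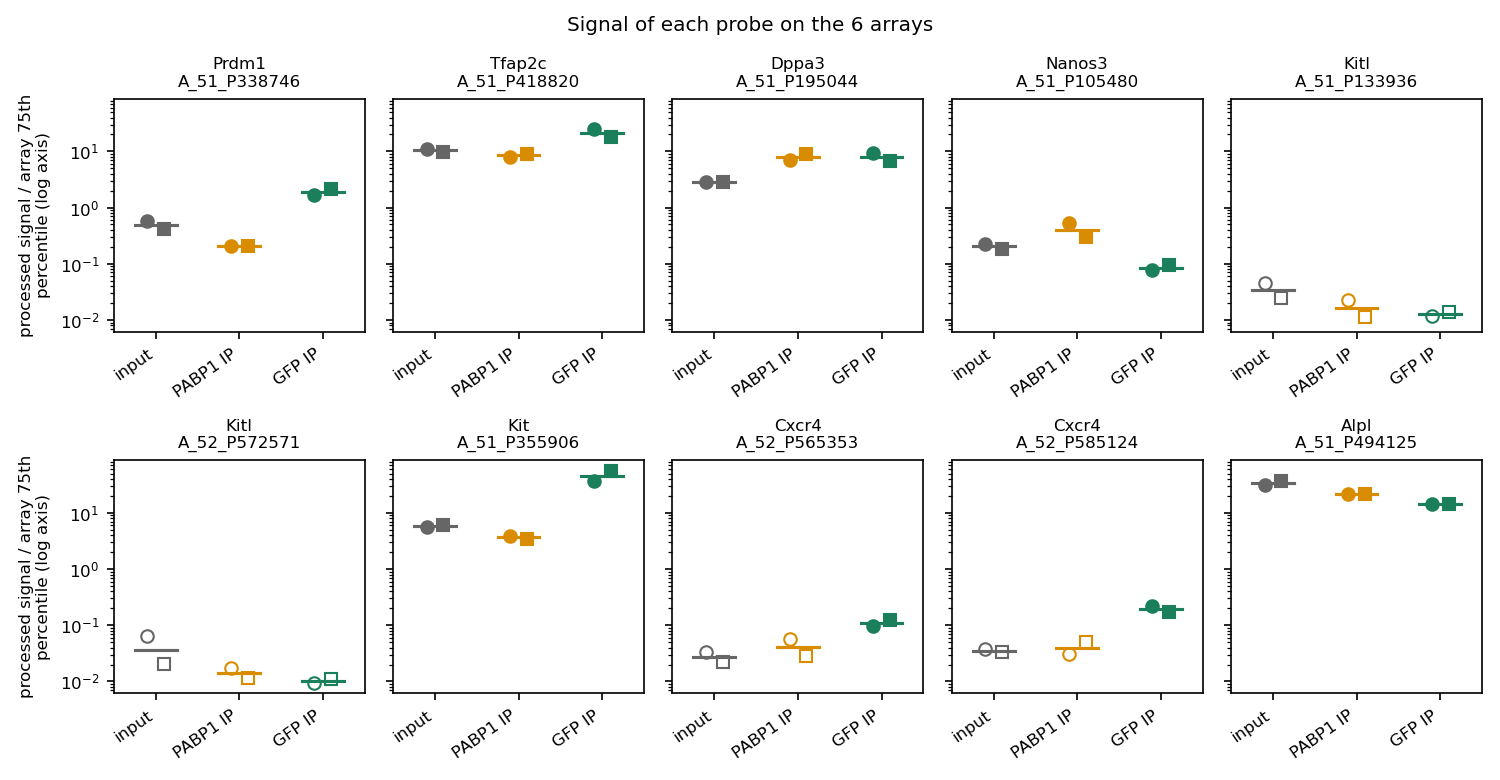
Scaled signal of each of the 10 probes on the 6 arrays, on a log axis. Circles are replicate 1 and squares replicate 2, filled where the probe was well above background, and lines are geometric means. Kit and Prdm1 stand highest in the GFP IP, Dppa3 is raised in both IPs, and Kitl is open throughout.

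Among the specifiers, Prdm1 encodes the repressor that silences the somatic programme in early germ cells. Its scaled signal was 0.572 and 0.412 in the inputs, 0.21 and 0.204 in the PABP1 IPs, and 1.66 and 2.12 in the GFP IPs. The 3 groups did not overlap, with the GFP IP highest and the PABP1 IP lowest. Against input, Prdm1 was 3.87-fold higher in the GFP IP, a log2 difference of 1.95 ± 0.24 (SE, n = 2 arrays per group, adjusted p = 0.0029 by limma). It was lower in the PABP1 IP than in input by 1.23 ± 0.24 (adjusted p = 0.0086 by limma), a direction that turned to 1.04 under scaling to spike-in controls and a call lost without input replicate 1 (adjusted p = 0.0516). Between the antibodies Prdm1 was 9.07-fold higher with GFP, a difference of 3.18 ± 0.24 (adjusted p = 0.000562 by limma). The GFP IP values passed the test in each of 17 alternative settings against either reference, but with normexp background correction they fell to 0.98 against input and 1.58 against the PABP1 IP.

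Tfap2c encodes an AP-2 transcription factor that acts with PRDM1 and PRDM14 in germ cell specification. It read 11.2 and 9.71 in the inputs, 8.01 and 8.97 in the PABP1 IPs, and 25.5 and 18.3 in the GFP IPs. Both GFP IP arrays lay above the other 4. The GFP IP exceeded input by 1.05 ± 0.22 (2.08-fold, adjusted p = 0.0134 by limma) and the PABP1 IP by 1.35 ± 0.22 (adjusted p = 0.00431 by limma). The difference from input ran from 0.82 to 2.08 over the alternatives, and its call was lost without input replicate 1 (adjusted p = 0.0567 by limma), input replicate 2 (0.0781) or GFP IP replicate 1 (0.0533). That against PABP1 was lost under spike-in scaling, where the difference was 0.11. PABP1 IP and input did not differ past the threshold (log2 difference -0.30, 95% confidence interval -0.86 to 0.27), and the sign turned with normexp background correction and with spike-in scaling.

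Dppa3 encodes a maternal and germ cell factor that shields DNA methylation in the early embryo. It read 2.9 and 2.8 in the inputs, 6.89 and 9.04 in the PABP1 IPs, and 9.24 and 6.81 in the GFP IPs. All 4 IP arrays lay above both inputs, and the 2 IPs overlapped. The rise over input was 1.48 ± 0.24 with GFP (adjusted p = 0.00569 by limma) and 1.47 ± 0.24 with PABP1 (adjusted p = 0.00481 by limma), and both calls were kept in all 17 alternative settings, with ranges of 1.26 to 2.5 and 1.24 to 3.74. The difference between the antibodies was 0.01, with a 95% confidence interval of -0.59 to 0.60. Under spike-in scaling Dppa3 was lower with GFP than with PABP1, by 1.24 on the log2 scale (adjusted p = 0.0339 by limma).

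Nanos3 encodes an RNA-binding protein needed for germ cell survival. It was dim, at 0.224 and 0.186 in the inputs, 0.521 and 0.301 in the PABP1 IPs, and 0.0785 and 0.0933 in the GFP IPs. The groups did not overlap after scaling, and their order was the reverse of that of Prdm1. Before scaling, the signals were 14.2 and 14 in the inputs, 54.7 and 44 in the PABP1 IPs, and 12.4 and 15.2 in the GFP IPs. There the inputs and GFP IPs overlapped, so their order rests on the scaling. The lowest signal well above background on an array was between 6.79 and 9.58. Nanos3 was 4.63-fold lower with GFP than with PABP1, a log2 difference of -2.21 ± 0.31 (adjusted p = 0.00232 by limma), which passed in all 17 alternative settings and ran from -3.46 with spike-in scaling to -0.75 with normexp. Against input, Nanos3 was lower in the GFP IP (-1.25 ± 0.31, adjusted p = 0.0206) and higher in the PABP1 IP (0.96 ± 0.31, adjusted p = 0.0443 by limma). Neither call against input held throughout. The lower GFP IP value did not pass without input replicate 1, input replicate 2 or GFP IP replicate 1, with adjusted p-values of 0.107, 0.064 and 0.0869 by limma. Nor did it pass with quantile normalization (-0.81), median scaling (-0.66) or spike-in scaling (-0.23), with adjusted p-values of 0.0628, 0.0907 and 0.801 by limma. The higher PABP1 IP value did not pass without PABP1 IP replicate 1 (0.56, adjusted p = 0.126 by limma), nor without either input or either GFP IP array (adjusted p from 0.0638 to 0.183), and turned to -0.14 with normexp background correction.

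Kit encodes the receptor and had the largest GFP IP difference of the 8 tested probes against either reference. Its scaled signal was 5.67 and 6.0 in the inputs, 3.93 and 3.46 in the PABP1 IPs, and 37.4 and 55.7 in the GFP IPs. Every GFP IP value was far above the other 4 arrays. Against input, Kit was 7.82-fold higher in the GFP IP, a log2 difference of 2.97 ± 0.24 (adjusted p = 0.00161 by limma). It ranked 275 from the top of the 21051 probes in that comparison. Against the PABP1 IP it was 12.4-fold higher (3.63 ± 0.24, adjusted p = 0.00053 by limma) and ranked 100. Both calls held in all 17 alternative settings, with the GFP IP against input between 2.68 and 3.99 and against the PABP1 IP between 2.38 and 4.34. In the PABP1 IP, Kit lay below input by a log2 difference of -0.66 ± 0.24 that did not pass (adjusted p = 0.0645 by limma). It passed without GFP IP replicate 1 or 2 (adjusted p = 0.0364 by limma each), under cyclic loess (-0.96) and among probes well above background on all 6 arrays (adjusted p = 0.0408), and turned to 1.61 with spike-in scaling.

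The Kit probe was printed 10 times on each array, which shows the measurement error within an array. The unscaled signals of its spots ran from 336 to 389 and from 426 to 489 on the inputs, and from 383 to 446 and from 463 to 557 on the PABP1 IPs. On the GFP IPs they ran from 5430 to 6240 and from 8450 to 9530. The coefficient of variation within an array was 4.66% to 5.42%, smaller than the 1.49-fold gap between the scaled signals of the 2 GFP IP arrays. The spots of an array share 1 hybridisation and were counted as 1 value.

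**Figure D2:**
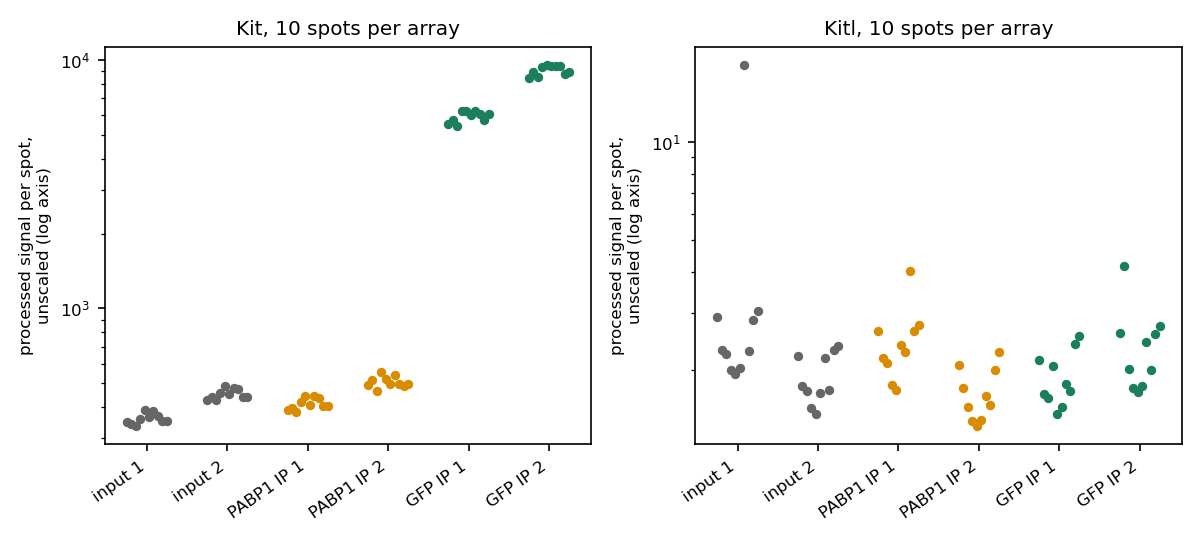
Unscaled processed signal of each of the 10 spots of Kit and of the Kitl probe A_51_P133936 on the 6 arrays, on log axes. Kit spots lie within a narrow band on each array and the GFP IPs stand apart, while Kitl spots lie near background in all groups, with 1 spot of input replicate 1 at 17.2.

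Kitl, the ligand of KIT, is made chiefly by the somatic cells around germ cells. Neither of its 2 probes was well above background on any array, so neither was tested and no fold is given. The probe with 10 spots had an unscaled signal of 2.89 and 1.88 in the inputs, 2.39 and 1.68 in the PABP1 IPs, and 1.87 and 2.3 in the GFP IPs. Its single bright spot, at 17.2 on input replicate 1, was not repeated by the other 9 spots. The other probe read 4.14 and 1.52, 1.81 and 1.68, and 1.5 and 1.77 in the same order. At this signal, a difference in Kitl was not detectable in the scanner files.

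Cxcr4, the receptor that guides migrating germ cells towards CXCL12, was well above background only in the GFP IPs. The probe A_52_P585124 had an unscaled signal of 2.39 and 2.49 in the inputs, 3.18 and 7.35 in the PABP1 IPs, and 34.7 and 28.2 in the GFP IPs. The probe A_52_P565353 had 2.13 and 1.64, then 6.05 and 4.17, then 15.5 and 20.6. Both probes placed the GFP IPs highest, a direction that the filter on dim probes fixed, so the p-values that follow describe the fit and are no independent test. Since the other groups have only an upper bound, A_52_P585124 was at least 1.67-fold above input in the GFP IP (adjusted p = 0.00286 by limma). It was at least 3.03-fold higher than in the PABP1 IP (adjusted p = 0.0018). For A_52_P565353 the bound was at least 1.80-fold against the PABP1 IP (adjusted p = 0.0264) and under 1 against input, so no fold is given there. The A_52_P565353 call against input was lost without input replicate 2 (adjusted p = 0.0601 by limma), and that against PABP1 without PABP1 IP replicate 2 (0.0778), GFP IP replicate 1 (0.0564) or GFP IP replicate 2 (0.0995). With normexp background correction the differences against input turned to -0.29 for A_52_P585124 and -0.41 for A_52_P565353. Against the PABP1 IP, A_52_P585124 did not pass with normexp (0.16, adjusted p = 0.505 by limma) or spike-in scaling (1.08, adjusted p = 0.0662). There A_52_P565353 fell to 0.02 and 0.21 (adjusted p = 0.934 and 0.733 by limma).

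Alpl was bright on all arrays, and its scaled signal was 31.8 and 37.1 in the inputs, 22 and 21.4 in the PABP1 IPs, and 14.3 and 14.5 in the GFP IPs. The order of the groups was input, PABP1 IP, GFP IP, with no overlap. The log2 difference was -1.25 ± 0.17 for the GFP IP against input (adjusted p = 0.0035 by limma), -0.66 ± 0.17 for the PABP1 IP against input (adjusted p = 0.0207) and -0.59 ± 0.17 between the IPs (adjusted p = 0.026). This order rests on the scaling. Before scaling, the signals were 2020 and 2790, 2310 and 3130, and 2260 and 2370, and these groups overlapped. Under spike-in scaling the GFP IP lay below input by -0.23, which did not pass (adjusted p = 0.803 by limma), as -0.66 did not with the median scaling (0.0954), and the PABP1 IP lay above input by 1.61. The call between the IPs was lost in 12 of 17 alternative settings, each of the 6 that left out 1 array among them, and the sign turned to 0.30 under cyclic loess. The call of the PABP1 IP against input was lost or turned in 9, including those without either input or either PABP1 IP array.

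**Figure D3:**
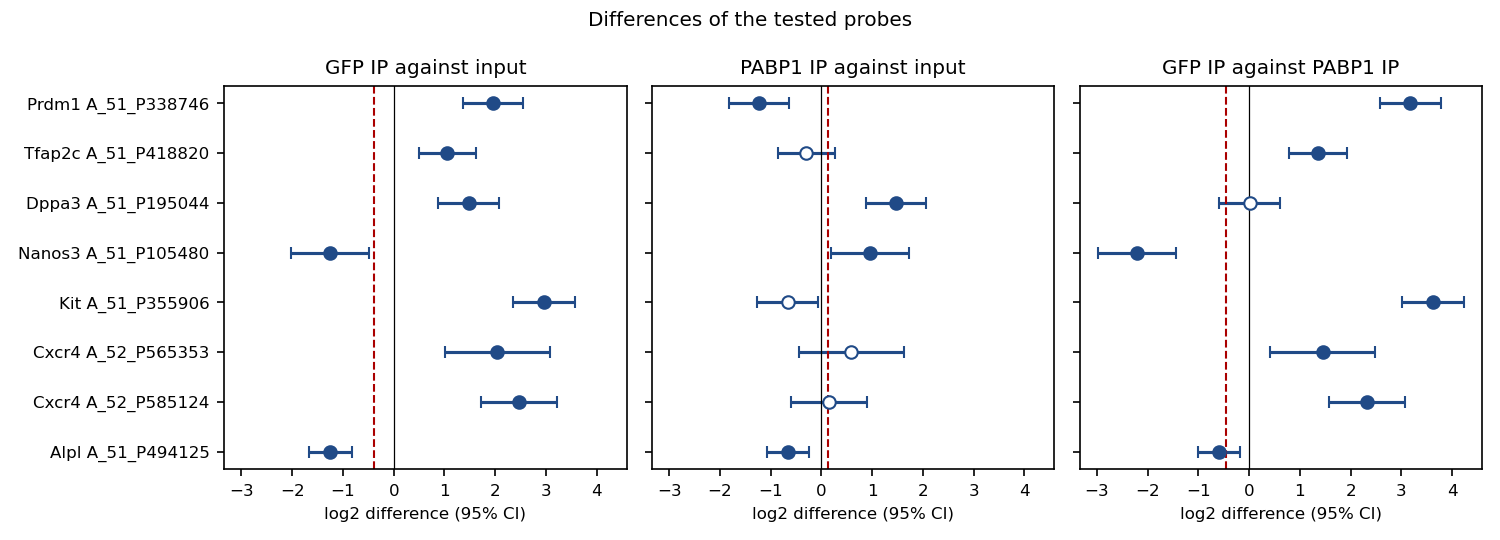
Log2 differences of the 8 tested probes in the 3 comparisons, with 95% confidence intervals from limma (2 arrays per group). Filled points have an adjusted p under 0.05, and the dashed line is the median of all tested probes. Kit and Prdm1 lie far right of the median in both comparisons of the GFP IP, and Nanos3 left of it.

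Of the 8 tested probes, 8 had groups that did not overlap between GFP IP and input, both Cxcr4 probes among them, beside 81.9% of all probes. The corresponding counts were 6 for PABP1 IP against input (78.4% of all) and 7 for GFP IP against PABP1 IP (81.2%). With the slide as a block, each call in the 3 comparisons was kept, and Kit differed by 3.16 between GFP IP and input. On slide 2 alone, with 1 array of each IP and no test, GFP minus PABP1 was 3.43 for Kit, 3.02 for Prdm1 and -1.94 for Nanos3. On slide 1 the same differences were 3.82, 3.34 and -2.48. The slide pairs gave 1.51 and 1.2 for Tfap2c and 0.03 and -0.02 for Dppa3.

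The scale of all values depends on how the arrays are made comparable. Spike-in scaling raised the median of all probes by 1.02 for GFP IP against input and by 2.26 for PABP1 IP against input, and dropped that between the IPs by 1.24. In GFP IP against input, the split of called probes was 4356 higher and 6844 lower with the 75th percentile, 3911 and 9826 with normexp, 5213 and 5458 with quantile normalization, 5731 and 4401 with cyclic loess, 5826 and 2231 with the median, and 6587 and 505 with spike-ins. In GFP IP against PABP1 IP it was 5143 and 8074 with the 75th percentile, 6105 and 6361 with quantile normalization, 7014 and 5309 with cyclic loess, 6032 and 5215 with the median, and 1180 and 13331 with spike-ins. In PABP1 IP against input it was 6472 and 5046 with the 75th percentile and 17602 and 422 with spike-ins. Kit, Prdm1, Tfap2c and Dppa3 remained above input in the GFP IP under each of these, although Tfap2c lost its call when some single arrays were left out.

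**Figure D4:**
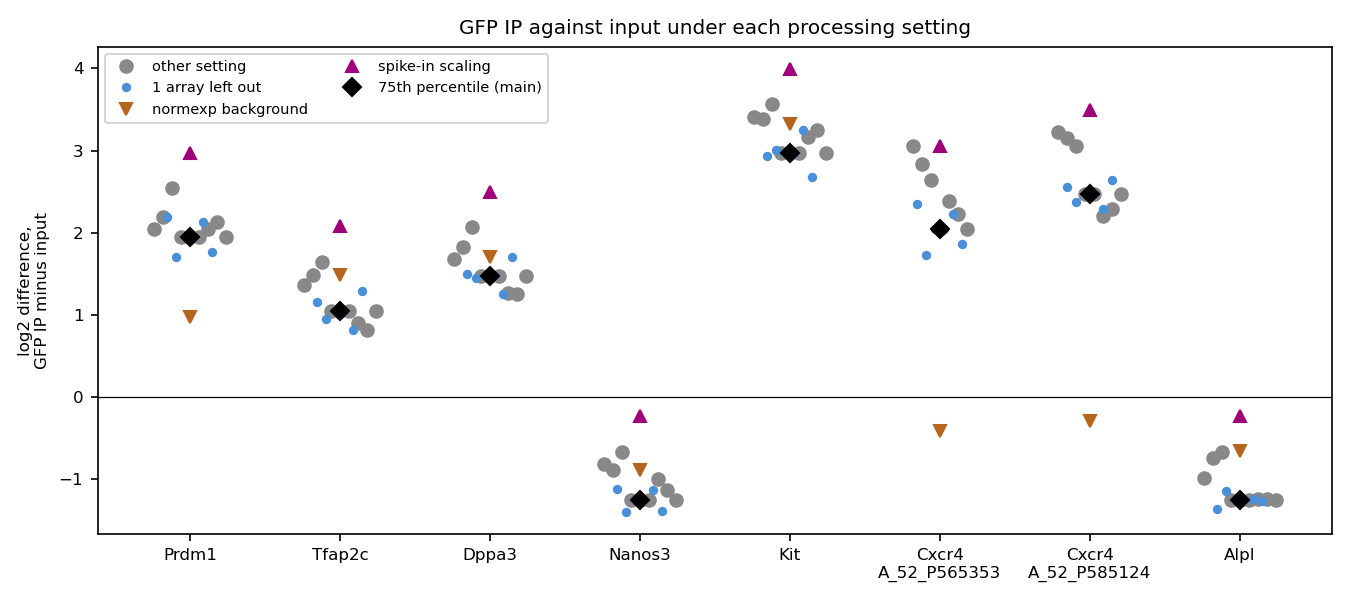
Log2 difference of GFP IP against input for the 8 tested probes under the main setting and each alternative. Kit stays between 2.68 and 3.99, Nanos3 and Alpl come near 0 under spike-in scaling, and both Cxcr4 probes fall below 0 with normexp background correction.

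The authors' deposited table, which gives group means scaled to the median of each array, was read beside the scanner values. Over 8144 probes, its log2 differences correlated with those of the scanner files at r = 0.71 for GFP IP against input and 0.65 for PABP1 IP against input. For GFP IP against PABP1 IP, r between the authors' deposited table and the scanner files was 0.92. These correlations run across probes, which are not independent replicates. In the authors' deposited table, Kit was 6.72 to 7.46 times above input in the GFP IP over 10 rows. Prdm1 was 11.7 times higher, Dppa3 7.99 times and Tfap2c 5.66 times in the authors' deposited table, and Nanos3 stood at 0.373 of input. Alpl went the other way from the scanner files: in the authors' deposited table its mean was 40.3 in input, 363 in the PABP1 IP and 258 in the GFP IP. Kitl had 11 rows in the authors' deposited table, with means of 7.5e-05 to 0.268 in input, 0.164 to 0.741 in the PABP1 IP and 0.0514 to 1.56 in the GFP IP, the GFP IP above input in 10. Cxcr4 also differed, with GFP IP over input at 0.743 and 1.68 in the 2 rows of the authors' deposited table. The standard error in the GFP IP was 0.257% of the mean for Tfap2c and at most 1.62% for Kit in the authors' deposited table. In the scanner files the ratio of GFP IP replicate 2 to replicate 1 was 0.742 for Tfap2c and 1.54 for Kit before scaling. No single factor per array brings both genes to equal replicates, so the table was not these processed signals multiplied by 1 factor per array. Other signals, background steps or normalizations of the same arrays were not tried, and how the table was made is not given in the sources used here.

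Components of the pathway downstream of KIT were read as a list of 27 adaptor, kinase, phosphatase and inhibitor genes, 25 of them tested, with 1 probe per gene. In the GFP IP against input, 10 were higher, 2 lower and 13 did not pass, whereas 18.2% of all 15307 genes were higher and 36.9% lower. The median difference of the list was 0.30, beside -0.51 for all genes. Gab1, an adaptor that recruits PI3-kinase, read 0.909 and 0.801 in the inputs and 7.09 and 5.29 in the GFP IPs, a difference of 2.84 ± 0.23 (adjusted p = 0.00168 by limma). Crkl, another adaptor, was higher by 2.06 ± 0.19 (adjusted p = 0.00196), but its other probe gave -0.50 and did not pass. Ptpn6, the phosphatase SHP-1 that dampens KIT signals, was lower by -1.66 ± 0.27 (adjusted p = 0.00591 by limma). Its other probe gave -1.79 and did not pass (adjusted p = 0.207 by limma). Plcg1, a phospholipase, was lower by -0.95 ± 0.17 (adjusted p = 0.00793), and of its other probes 1 gave -1.0, which passed, and 1 gave 1.22, which did not (adjusted p = 0.0658). With normexp Gab1 stood at 2.15, and neither Crkl (0.30, adjusted p = 0.177) nor Plcg1 (-0.36, adjusted p = 0.094 by limma) passed. With median scaling neither Plcg1 (adjusted p = 0.349) nor Ptpn6 (0.0866) passed. With spike-in scaling Plcg1 turned to 0.07 and Ptpn6, at -0.64, did not pass.

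Between the IPs, 15 of the 25 components were higher with GFP and 3 lower, beside 22.1% and 41.7% of all genes, and their median was 0.82 beside -0.60. Cbl and Pik3r1, both counted as higher, entered the test only through the GFP IP arrays, so their calls could hardly have gone another way. Pik3ca, the catalytic subunit of PI3-kinase, read 0.0506 and 0.087 in the PABP1 IPs and 0.418 and 0.593 in the GFP IPs, a difference of 2.91 ± 0.34 (adjusted p = 0.00127 by limma). Spred1, an inhibitor of the RAS pathway, was higher by 2.52 ± 0.24 (adjusted p = 0.000767), while its other probe gave 0.60 and did not pass. Mapk3, the kinase ERK1, was lower by -1.75 ± 0.20 (adjusted p = 0.00119), and Ptpn6 by -1.31 ± 0.27 (adjusted p = 0.00936 by limma). The other Ptpn6 probe gave -1.33 and did not pass (adjusted p = 0.317 by limma). With normexp Pik3ca fell to 0.73 and Spred1 to 1.11, both still past the threshold, and Ptpn6 did not pass with median scaling (adjusted p = 0.111). Under spike-in scaling 2 components were higher and 7 lower between the IPs, when 5% of all genes were higher and 67.6% lower.

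In the PABP1 IP against input, 5 components were higher, 9 lower and 11 did not pass, beside 30.1% and 23.8% of all genes, with a median of -0.36 beside 0.13. Cbl, counted as lower, was not well above background on any array of these groups. Pik3ca was lower by -3.58 ± 0.34 (adjusted p = 0.00129 by limma), which was -1.18 with normexp, and 1 of the 2 PABP1 IP arrays read it well above background. Stat3, a transcription factor activated by cytokine receptors, fell from 46.1 and 44 in the inputs to 10.6 and 9.03, a difference of -2.20 ± 0.17 (adjusted p = 0.000997) that turned to 0.06 with spike-in scaling. Mapk3 and its upstream kinase gene Map2k1 were higher, by 1.19 ± 0.20 and 1.10 ± 0.16 (adjusted p = 0.00562 and 0.00339 by limma).

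**Figure D5:**
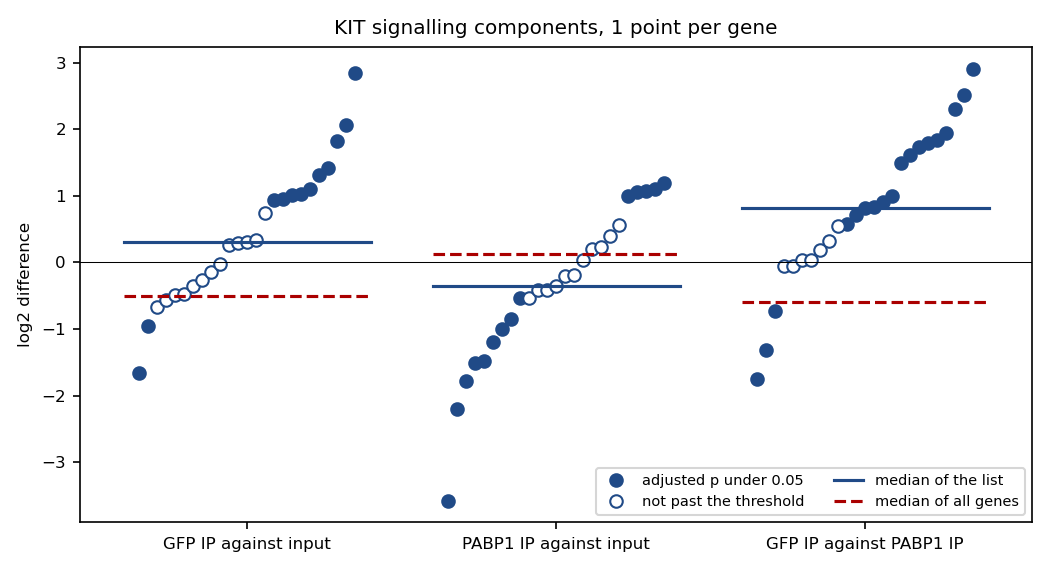
Log2 differences of the 25 tested KIT signalling components, 1 point per gene, in the 3 comparisons. Filled points have an adjusted p under 0.05, solid lines are medians of the list and dashed lines medians of all genes. The list median lies at 0.82 between the IPs, beside -0.60 for all genes.

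A further 27 genes of germ cell development and pluripotency were read in the same way, 23 of them tested. In the GFP IP against input, 9 were higher, 4 lower and 10 did not pass, beside 18.2% higher and 36.9% lower among all genes, with a median of 0.48 beside -0.51. Dazl itself, the transcript of the tagged protein, read 0.852 and 0.778 in the inputs and 8.73 and 14.4 in the GFP IPs, a difference of 3.78 ± 0.27 (adjusted p = 0.00152 by limma). Its other probe gave 2.44, and these arrays do not separate the endogenous transcript from the construct's. Ackr3, a scavenging receptor for the CXCR4 ligand, was higher by 2.12 ± 0.16 (adjusted p = 0.00159). Ifitm1 and Ifitm3, the genes of the membrane proteins Fragilis2 and Fragilis that mark germ cell precursors, were lower, by -1.57 ± 0.15 and -1.18 ± 0.17 (adjusted p = 0.00209 and 0.00415 by limma). Under spike-in scaling neither Ifitm1 (-0.54) nor Ifitm3 (-0.16) passed, and Ifitm3 did not with median scaling (-0.59).

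In the PABP1 IP against input, 8 of the 23 were higher (34.8%) and 7 lower (30.4%), with a median of 0.30. These shares lie near the 30.1% higher and 23.8% lower of all genes, whose median was 0.13, and under spike-in scaling 18 were higher and 0 lower. Ifitm1 rose from 101 and 95.1 in the inputs to 305 and 282, a difference of 1.58 ± 0.15 (adjusted p = 0.00132 by limma), and Ifitm3 rose by 1.73 ± 0.17 (adjusted p = 0.00137). Tet2, a methylcytosine dioxygenase, and Dazl were lower, by -2.23 ± 0.16 and -1.81 ± 0.27 (adjusted p = 0.000925 and 0.00391 by limma), which turned to 0.03 and 0.46 with spike-in scaling and were -0.98 and -0.91 with normexp. The other Dazl probe gave -0.73 and did not pass (adjusted p = 0.0969 by limma). Between the IPs, 9 were higher with GFP and 6 lower, beside 22.1% and 41.7% of all genes, with a median of 0.34 beside -0.60. The gene T, counted as lower, entered the test only through the PABP1 IP arrays, so its call could hardly have gone another way. Under spike-in scaling 4 of the 23 genes were higher and 10 lower, with a median of -0.90. Dazl differed most, by 5.59 ± 0.27 (adjusted p = 0.000469 by limma). Sall4, a zinc-finger factor of pluripotent and germ cells, was higher by 2.75 ± 0.21 (adjusted p = 0.000532), although its other probe gave -0.41 and did not pass. Ifitm1 and Ifitm3 were lower with GFP than with PABP1, by -3.14 ± 0.15 and -2.91 ± 0.17 (both adjusted p = 0.000469 by limma).

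The genes whose pair of differences against input lay closest to that of Kit, by Euclidean distance over 15306 other genes, were TC1531749, 2610002J23Rik, Arrdc3, Zbtb33 and AK033595. Arrdc3, an arrestin-domain gene, differed by 2.91 between GFP IP and input and by -0.57 between PABP1 IP and input, at a distance of 0.106. Zbtb33, the gene of the transcription factor Kaiso, differed by 2.80 and -0.59, at a distance of 0.177. The likeness rests on 3 group means. Over these genes, the SE of the difference between GFP IP and input ran from 0.2 to 0.66. It was larger than the distance of each gene, so their ranking is not resolved.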

How the data were processed

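RNA from 6 samples was hybridised to Agilent mouse 1-colour arrays, labelled with Cy3 per the labels' protocols. Each deposited scanner file gives the intensity of every spot and a background-subtracted processed signal, made with Agilent Feature Extraction 9.1.3.1 per the file headers. The authors also deposited a table of group means and standard errors of signal, whose header describes scaling to each array's median, with a quality score that was not used. It entered no test.

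Control and outlier spots were left out. Spots of a probe were averaged as log2 processed signal, and each array's 75th percentile over non-control spots was subtracted. Genes were named from the files and, for 22951 probes, through accessions in a RefSeq table (GRCm38.p6) that served only for naming. Probe sequences and positions are not given.

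Groups were compared with limma 3.58.1 in R 4.3.3 (lmFit, eBayes; group as the only factor, 3 residual degrees of freedom), two-sided, with Benjamini-Hochberg adjustment over 21051 probes, or 15307 genes for lists (the probe with the highest mean signal per gene). Values after ± are standard errors. A group with no array well above background has an upper bound, the higher of the lowest signal well above background and the probe's own, which gives folds written as at least. A simulated dataset of 21051 probes had 100 changed by a log2 of 2 and 100 changed by 1. For GFP IP against input, 40 and 0 of them were recovered. No other probe was changed there, whereas 53.2% of probes passed in the real comparison, which makes the adjusted threshold less strict. The simulated recovery therefore does not measure how many real differences were missed. A probe that did not pass was not shown to be unchanged. The number of arrays limits the precision.

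All 9 genes were named with every probe. From each list and comparison, the 2 genes with the largest difference in each direction that passed with groups not overlapping were named, with the 5 genes nearest to Kit. The genes and lists were chosen with earlier results of these data known. Alternatives were normexp background correction (offset 50), quantile, cyclic loess, median and spike-in scaling (8 spike-in probes), other filters, 1 probe per gene, slide and replicate blocks, and leaving out each array.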

Additional observations from a re-analysis of the deposited data

How the results depend on the processing

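Over 399 values of single probes under 17 alternatives, 323 kept their direction and their side of the threshold, 49 no longer passed, 9 came to pass and 18 changed sign. The number of probes past the threshold for PABP1 IP against input, 4 in the main setting, was 2 with normexp background, 7 with cyclic loess, 7 with spike-in scaling and 2 with no filter on dim probes. It ran from 1 to 4 when single arrays were left out. For GFP IP against PABP1 IP it was 4 with normexp background in place of 7, and 5 to 6 without single arrays. For GFP IP against input it was 5 to 8 without single arrays. Signs changed with normexp for Cxcr4 in GFP IP against input (-0.41 for A_52_P565353 and -0.29 for A_52_P585124). They also changed with normexp in PABP1 IP against input for Tfap2c (0.08), Nanos3 (-0.14) and Cxcr4 (-0.44 and -0.46). With spike-in scaling, PABP1 IP against input turned for Prdm1 (1.04), Tfap2c (1.97), Kit (1.61) and Alpl (1.61), and GFP IP against PABP1 IP for Dppa3 (-1.24). Alpl turned between the IPs with cyclic loess (0.30). Differences near 0 also changed sign. Cxcr4 A_52_P585124 in PABP1 IP against input was -0.12 with slide as a block, -0.22 on slide 1 only, and -0.22 to 0.51 without single arrays. Dppa3 between the IPs was -0.02 on slide 1 only and -0.21 to 0.23 without single arrays. The cause of these changes was not tested. Of the KIT signalling components, 9 passed between the IPs with spike-in scaling, in place of 18. Over genes well above background on all 6 arrays, their median minus that of all genes was -0.29 for PABP1 IP against input (-0.48 in the main setting) and 1.13 between the IPs (1.42). Among all probes, the count past the threshold for GFP IP against input, 11200, was 7092 with spike-ins, 21822 with no filter, and 5706 or 6539 without input replicate 1 or 2. For PABP1 IP against input, 11518 became 18024 with spike-ins and 7652 or 7490 without input replicate 1 or 2. The replicate numbers are not stated to pair the samples, and the deviations of same-numbered arrays correlated at 0.15 for input and PABP1 IP, -0.02 for input and GFP IP, and -0.62 for the 2 IPs. The same-numbered arrays of the 2 IPs lay on different slides, so replicate number and slide cannot be told apart in the last value. With the replicate block, 9411, 10093 and 11883 probes passed in the 3 comparisons, in place of 11200, 11518 and 13217, and of the 8 probes only Nanos3 in PABP1 IP against input lost its call (0.96, adjusted p = 0.0673 by limma). Signal over background limits Kitl and Cxcr4, and a lone array left in a group was assumed to vary like the other groups.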
